A study of Mus musculus with 12 samples.

Results

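Transcripts of 55 genes of cell guidance were followed in sorted liver cells at successive stages of the conversion of hepatocytes toward bile duct cells. The members were the rows of the deposited count table whose symbol is on a fixed list of 19 semaphorins, 9 plexins, 2 neuropilins, 8 ephrins, 11 Eph receptors, 2 Slits, 2 Robo receptors, 1 netrin and 1 Unc5 receptor. All 55 were among the 53599 rows, and 47 passed the filter on low counts that left 16210 genes to test. Every mouse was labelled WT and had received AAV8-TBG-Cre, a virus in which the hepatocyte promoter TBG drives Cre recombinase. A diet with 0.1% DDC, a compound that injures bile ducts, followed for 8 weeks, so no group comes from uninjured liver. From these livers, EGFP+ Cd24- Epcam- cells formed the early group and EGFP+ Cd24+ Epcam- cells the intermediate group. EGFP+ Cd24+ Epcam+ cells formed the full group and EGFP- Epcam+ cells the BEC group, the biliary epithelial cells outside the traced lineage. There were 3 libraries of bulk RNA for each. EGFP marks cells of the lineage in which Cre acted, and the labels used here give no age and do not name the reporter allele. They do not say whether replicates came from separate animals, so p-values measure only the spread between these libraries, which may be technical.

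Guidance proteins were first described in growing axons, and most act between neighbouring or nearby cells. Secreted and membrane-bound semaphorins signal through plexins, in some cases with a neuropilin as co-receptor. Ephrins are membrane-bound ligands of the Eph receptor tyrosine kinases and can also signal back into the cell that carries them. Slits are secreted ligands of Robo receptors, and netrins act through receptors that include the Unc5 family. In epithelia these systems are known for setting cell boundaries, motility and the shape of tubes, and several also act in blood vessels.

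Library totals ran from 15112893 to 19731887 counts, and the floor used here, 3 counts in a library, corresponds to between 0.128 and 0.273 CPM, the counts that edgeR scales to a common library size with TMM (trimmed mean of M values) factors. The sorted identities were visible in fixed marker lists. Summed over 8 hepatocyte markers, levels went from 95155 to 99082 CPM in early to 1972 to 2611 in BEC, and over 8 biliary markers from 951 to 1912 to 13789.5 to 17151. The summed level of 12 endothelial markers was 19.1 to 31.1 CPM in early, 16.5 to 31.1 in intermediate, 9.91 to 14.2 in full and 10.6 to 18.9 in BEC, with 0 of the 12 at 0 in every library. The 10 stellate cell and fibroblast markers summed to 113 to 330.3, 65.6 to 194, 49.4 to 85.7 and 64.6 to 109.7 CPM in the same order. The sum of the 11 macrophage markers went from 26.3 to 28.9 CPM in early to 134 to 166 in BEC, where Csf1r alone had 128, 133 and 119.6, and the 4 mesothelial markers went from 3.16 to 6.18 CPM in early and 1.32 to 2.66 in intermediate to 188 to 214 in BEC, where Msln had 195, 187 and 212. Sums of neutrophil, B cell, and T and NK cell markers stayed at or under 1.88 CPM in every library, with Ms4a1 at 0 throughout. The 5 erythroid markers went from 18.7 to 32.9 CPM in early to 0.385 to 1.23 in BEC. Nearly all of that sum in early was Alas2 (18.5, 21.5 and 32.9 CPM), and each globin gene was at or under 0.237 CPM in every library. The mitochondrial share of the counts was 5.45% to 11.4% in early, with replicate 2 the highest, 3.99% to 4.75% in intermediate, 2.20% to 2.48% in full and 2.58% to 3.43% in BEC. It was thus lower in every later group than in early, and its part in the differences from early was not tested. CPM are not corrected for transcript length, so levels are compared here between groups for 1 gene and not between genes.

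Guidance genes rose more often than they fell along the series, on a list chosen with earlier results of these data known. Their counts beside those of all genes are therefore a description and not a test. Of the 47 tested, 27 were called higher and 5 lower in intermediate than in early by edgeR's quasi-likelihood test (Benjamini-Hochberg adjusted p under 0.05), against 28.7% and 25.7% of all genes tested. These counts are 57.4% and 10.6% of the members tested. The filter used all 4 groups, so a member scarce in early and intermediate could pass through full or BEC. In 8 of the 47 every early library was at or under 3 counts, which leaves little room for a lower call. Plxnb3, among the 27, was so in intermediate too. In a fit of these 6 libraries 40 members passed, with 26 higher and 4 lower (65% and 10%, against 27.6% and 27.9% of all genes). From intermediate to full, 29 of the 47 were higher and 6 lower (61.7% and 12.8%), where all genes gave 20.8% and 19.8%. Between full and BEC, 14 were higher and 7 lower in BEC (29.8% and 14.9%), against 10.7% and 10.6% of all genes. BEC against early gave 36 higher and 7 lower of 47 (76.6% and 14.9%), against 40.0% and 33.0% of all genes. Full against early gave 34 and 7 (72.3% and 14.9%), against 39.1% and 32.1%. BEC against intermediate gave 26 and 7 (55.3% and 14.9%), against 26.3% and 26.2% of all genes. Among the 4 groups, 43 of the 47 differed by the edgeR F test, a test that 75.6% of all genes passed. Comparisons that share a group of libraries are not independent of each other. In bulk libraries such as these, fewer cells that express a gene and less of its RNA per cell cannot be told apart. The higher macrophage and mesothelial sums in BEC lay mainly in Csf1r and Msln. Of the 10 macrophage markers tested in BEC against early, Csf1r was called higher (5.00, edgeR adjusted p 2.47e-12), Cd68 lower (-2.01, edgeR adjusted p 1.14e-05), and the other 8 had positive log2 fold changes, from 0.42 to 1.80, that were not called. Of the 4 mesothelial markers, Msln was called higher (6.95, edgeR adjusted p 7.16e-11), Lrrn4 lower (-4.26, edgeR adjusted p 0.000161), and Upk3b (-0.73) and Wt1 (1.25) were not called. In full the macrophage sum was 67.3 to 97.9 CPM and the mesothelial sum 20.3 to 30.4. From intermediate to full, Csf1r (1.46, edgeR adjusted p 7.49e-08), Msln (4.59, edgeR adjusted p 1.08e-07) and Wt1 (3.09, edgeR adjusted p 0.00632) were called higher. At that step 0 markers of either list were called lower. The part of these markers in the counts was not tested.

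**Figure D1:**
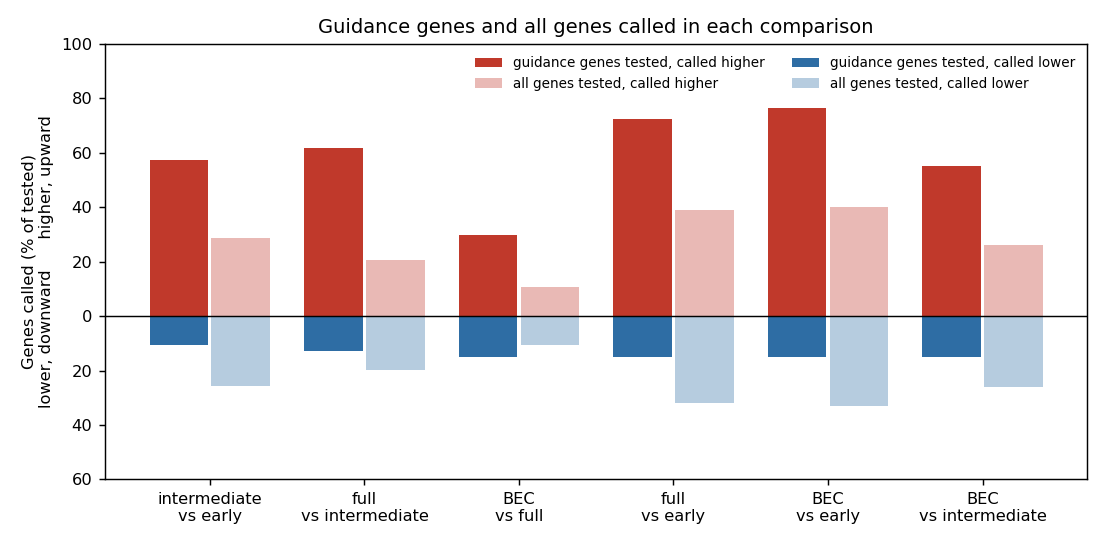
Share of genes called (% of genes tested, y axis; upward for higher, downward for lower in the first-named group) in each of the 6 comparisons (x axis), for the 47 guidance genes tested (dark bars) and all 16210 genes tested (pale bars). The dark upward bars run from 29.8% to 76.6% and the pale ones from 10.7% to 40.0%.

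The median log2 fold change of the 47 was 1.21 at the first step, 0.72 at the second and 0.05 at the third, against 0.06, 0.01 and 0.00460 for all genes. With the genes whose lower group was at the floor set to the bound that 3 counts allow, the first median was 0.85. The counts at the first step moved with the scaling. Without TMM factors, on total counts alone, the median of all genes there was 0.72, 33 members were called higher and 3 lower (70.2% and 6.38% of those tested), and 59.4% and 10% of all genes. The fitted first step of each member moved up with that median. Values below that name total counts refer to this scaling.

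**Figure D2:**
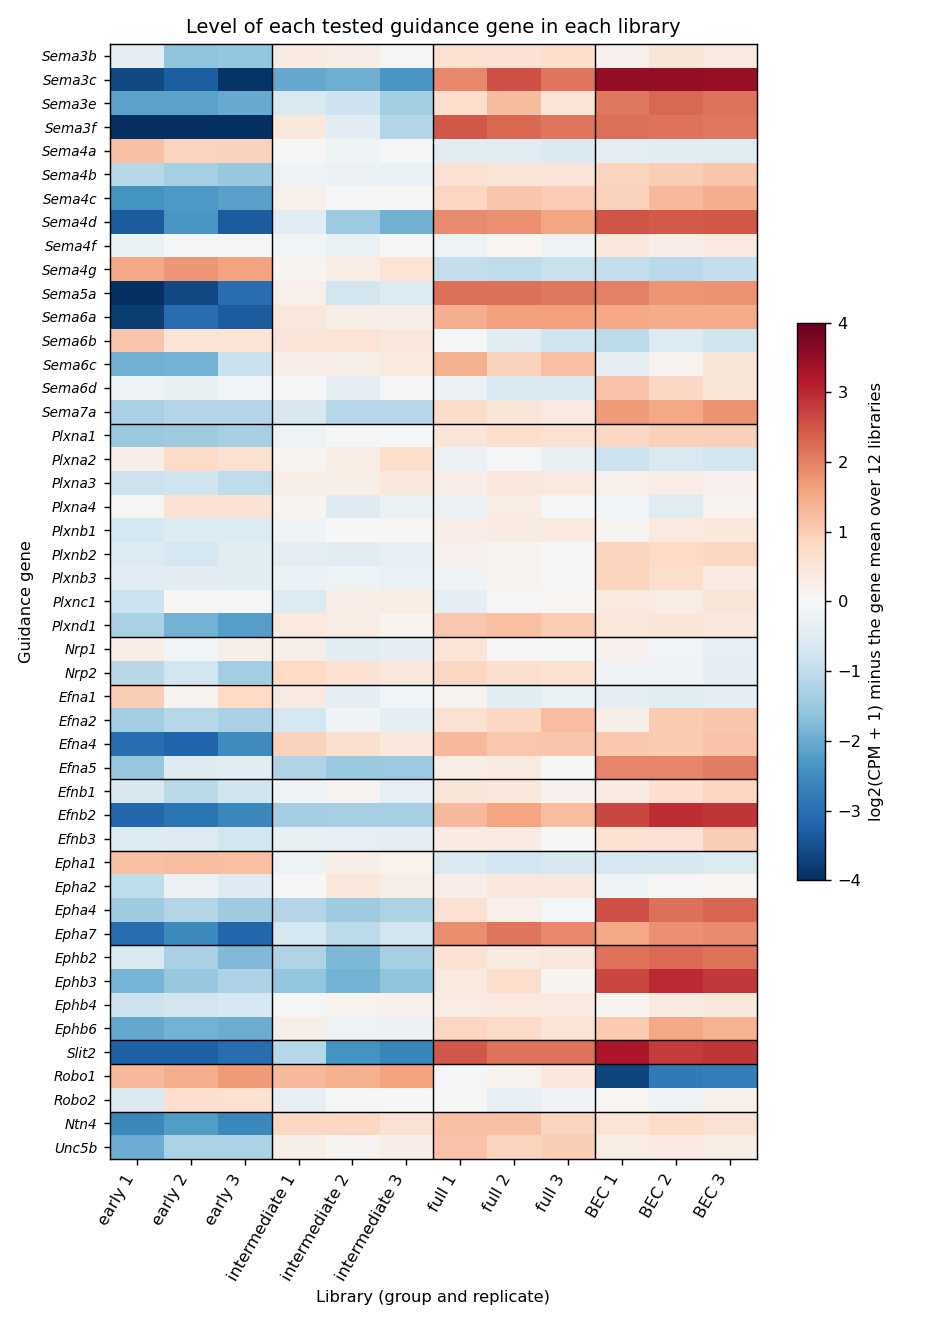
Level of each of the 47 tested guidance genes (rows, grouped by family) in each of the 12 libraries (columns), as log2(CPM + 1) minus the mean of the gene over the 12 libraries (color, red high and blue low). Most rows turn from blue in early to red in full and BEC, whereas Robo1 is red in early and intermediate and blue in BEC.

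Semaphorins are the ligands of the plexins. Of 19 semaphorins, 16 were tested. Of these 16, 10 were called higher and 2 lower at the first step, 10 and 3 at the second, and 5 and 1 at the third. Among all genes tested, higher and lower calls made up 28.7% and 25.7%, 20.8% and 19.8%, and 10.7% and 10.6%. Sema3c, a secreted class 3 semaphorin, had 0.316, 0.637 and 0.0809 CPM in early, 2.89, 3.18 and 2.21 in intermediate, 61, 95.7 and 71 in full, and 185, 186 and 180.2 in BEC. Its groups did not overlap at any step. Each step was called, with log2 fold changes of 3.02 (SE 0.42, edgeR adjusted p 3.83e-05), 4.78 (SE 0.21, edgeR adjusted p 1.35e-08) and 1.28 (SE 0.16, edgeR adjusted p 7.67e-05). Without early replicate 2 the first was 3.74. Sema3e, which binds plexin-D1 directly, had 0, 0 and 0.0809 CPM in early, 1.89, 1.48 and 0.736 in intermediate, 6.21, 9.59 and 5.47 in full, and 18, 20.7 and 18.9 in BEC. Only 1 count in all was seen in early, so the rise at the first step is 48.6-fold (exact 95% counting interval 8.45 to 1947) by summed counts (edgeR adjusted p 8.56e-05). The ratio was 31.5 without early replicate 1, and without early replicate 3, which held that count, the rise was at least 5.36-fold. It rose again at the second step (log2 fold change 2.38, SE 0.31, adjusted p 3.89e-05 by edgeR) and from full to BEC (log2 fold change 1.44, SE 0.26, adjusted p 0.00108 by edgeR). Both genes were highest in BEC, which did not overlap with full.

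Sema3f and Sema5a rose up to the full group and were not called higher in BEC. Sema3f, a secreted ligand of neuropilin-2, had 1.19, 1.27 and 1.38 CPM in early, 49.7, 27.3 and 16 in intermediate, 212, 186 and 165 in full, and 174, 169 and 163 in BEC. The intermediate libraries were spread over a wide range, all above early (log2 fold change 4.59, SE 0.40, adjusted p 4.93e-07 by edgeR). Full was higher still (log2 fold change 2.60, SE 0.28, adjusted p 6.7e-06 by edgeR), whereas full and BEC overlapped (log2 fold change -0.15, SE 0.26, adjusted p 0.756 by edgeR). Sema5a, a transmembrane semaphorin with thrombospondin repeats, had 2.06, 4.09 and 6.64 CPM in early, 70.8, 37 and 42.3 in intermediate, 289.7, 289 and 268 in full, and 251, 215 and 216 in BEC. It was called at the first step (log2 fold change 3.55, SE 0.31, adjusted p 5.24e-07 by edgeR) and at the second (log2 fold change 2.50, SE 0.26, adjusted p 5.38e-06 by edgeR). Its 3 BEC libraries lay below the 3 full ones without a call (log2 fold change -0.31, SE 0.24, adjusted p 0.454 by edgeR), and a fit of those 6 libraries alone did call it (-0.33, adjusted p by edgeR 0.0201). Sema3b, also secreted, had 19.1, 7.55 and 7.93 CPM in early, 31.8, 30.3 and 26.2 in intermediate, 39.3, 38.1 and 41.4 in full, and 28.2, 35.3 and 32.8 in BEC. Early libraries were the lowest, with replicate 1 above the other 2, and the first step was called (log2 fold change 1.35, SE 0.26, adjusted p 0.000607 by edgeR). The next steps were not called in the fit used throughout (0.43, edgeR adjusted p 0.177, and -0.30, edgeR adjusted p 0.454), although neither pair of groups overlapped. Full against intermediate was called with no filter on low counts (0.44, edgeR adjusted p 0.0398), with total counts only (0.63, edgeR adjusted p 0.0458) and without early replicate 1 (0.43, edgeR adjusted p 0.00564). In addition, both steps were called in fits of the 6 libraries compared (0.43 and -0.32, edgeR adjusted p 0.00523 and 0.0413). Sema3b overlaps Lsmem2 in RefSeq (GRCm38.p6), and whether the counting used strand is not given in the sources used here, so part of its reads is uncertain.

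Class 4 semaphorins, which are membrane proteins, split into rising and falling genes. Sema4d, the ligand of plexin-B1, had 0, 1.0 and 0 CPM in early, 6.48, 2.63 and 1.64 in intermediate, 36.3, 34.3 and 29.1 in full, and 55.6, 54 and 55.5 in BEC. Reads were seen in 1 early library only, and every later group was higher. The first 2 steps were called (3.49, SE 0.76, edgeR adjusted p 0.00152, and 3.23, SE 0.40, edgeR adjusted p 2.65e-05). The size of the first rested on single libraries: it was 2.88 without early replicate 1, 2.90 without early replicate 3 and 2.78 without intermediate replicate 1. Without early replicate 2, the other 2 early libraries are at 0 and the rise was at least 14.9-fold, with the early level set at 3 counts in each. The second was 3.95 without intermediate replicate 1. BEC lay above full in every library without a call (0.73, edgeR adjusted p 0.162), but was called with no filter on low counts (0.7, edgeR adjusted p 0.00383) and in the fit of 6 libraries (0.71, edgeR adjusted p 0.000363). Sema4c, a ligand of plexin-B2, had 3.32, 3.64 and 3.97 CPM in early, 25.2, 20.4 and 22.4 in intermediate, 40.2, 47.2 and 44.2 in full, and 41.7, 54.9 and 60.8 in BEC. It rose at the first step (log2 fold change 2.64, SE 0.17, adjusted p 3e-08 by edgeR) and the second (log2 fold change 0.95, SE 0.14, adjusted p 8.78e-05 by edgeR), while BEC overlapped with full (log2 fold change 0.26, SE 0.13, adjusted p 0.214 by edgeR). Without BEC replicate 1, the lowest of its group, that last difference was called (0.4, edgeR adjusted p 0.0287). Sema4b had 16.1, 13.6 and 11.9 CPM in early, 31.1, 30.3 and 29.4 in intermediate, 54.3, 50.5 and 50.9 in full, and 66.3, 71.5 and 78.1 in BEC. Its 4 groups were fully separated in that order, with log2 fold changes of 1.13, 0.78 and 0.47 (edgeR adjusted p 1.73e-06, 4.96e-05 and 0.00415).

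Sema4a and Sema4g went the other way. Sema4g had 809.8, 957 and 864 CPM in early, 306, 351 and 419 in intermediate, 145, 139 and 152 in full, and 146, 133 and 147 in BEC. Early stood far above the rest. Both of the first steps were called (log2 fold change -1.29, SE 0.12, adjusted p 6.51e-07 by edgeR, then log2 fold change -1.30, SE 0.12, adjusted p 1.45e-06 by edgeR), and full and BEC overlapped (log2 fold change -0.03, SE 0.12, adjusted p 0.897 by edgeR). Sema4a, known from immune cells among others, had 203, 166 and 169.6 CPM in early, 92.2, 78.8 and 86.8 in intermediate, 63.9, 62.7 and 59.3 in full, and 68, 64.7 and 62.6 in BEC. It fell at the first step (log2 fold change -1.06, SE 0.09, adjusted p 6.04e-07 by edgeR) and less at the second (log2 fold change -0.47, SE 0.09, adjusted p 0.00127 by edgeR), and full and BEC overlapped (0.07, edgeR adjusted p 0.687). Sema4f passed the filter with at most 0.626 CPM in a library. It was at or under 3 counts in every early library and was 4.91-fold (exact 95% counting interval 1.76 to 19) higher in BEC, a difference called by edgeR (adjusted p 0.0375). The call ended with DESeq2 (adjusted p 0.0598), with no filter on low counts (edgeR adjusted p 0.0657) and without any 1 of the 6 libraries compared (0.0559 to 0.135), and the ratio was 3.19 without early replicate 1. At the 3 steps it was not called, except in BEC against full without full replicate 2 (12.7-fold by summed counts, exact 95% counting interval 3.25 to 109, adjusted p 0.028 by edgeR) and in the fit of those 6 libraries (2.16, adjusted p 0.0344 by edgeR).

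Class 6 semaphorins are transmembrane ligands of the A plexins. Sema6a had 0.712, 1.91 and 1.38 CPM in early, 31.2, 27.1 and 26.9 in intermediate, 63.8, 72.7 and 73.8 in full, and 69.4, 66.3 and 66.5 in BEC. It was called at the first step (log2 fold change 4.43, SE 0.20, adjusted p 1.42e-09 by edgeR) and at the second (log2 fold change 1.30, SE 0.13, adjusted p 4.6e-06 by edgeR), and full and BEC overlapped (-0.06, edgeR adjusted p 0.833). Sema6c had 0.712, 0.728 and 2.51 CPM in early, 6.79, 6.63 and 7.53 in intermediate, 16.4, 11.1 and 14 in full, and 3.95, 6.20 and 8.04 in BEC, a peak in full whose libraries lay above those of every other group. It rose at the first step (log2 fold change 2.39, SE 0.40, adjusted p 0.000182 by edgeR) and the second (log2 fold change 0.99, SE 0.31, adjusted p 0.0224 by edgeR) and was lower in BEC (log2 fold change -1.19, SE 0.31, adjusted p 0.0141 by edgeR). Without early replicate 3 the first rise was 3.27. The second of these calls ended without full replicate 1 or 3 or intermediate replicate 1 or 2 (edgeR adjusted p 0.0521 to 0.0849). The third ended without full replicate 1 or BEC replicate 1 (edgeR adjusted p 0.0633 and 0.0612). Sema6b had 21.5, 14.4 and 14.3 CPM in early, 14, 14.4 and 13.5 in intermediate, 9.11, 6.60 and 5.03 in full, and 4.05, 6.24 and 5.03 in BEC. Early and intermediate overlapped (-0.27, edgeR adjusted p 0.34), and it fell from intermediate to full (log2 fold change -1.01, SE 0.23, adjusted p 0.00299 by edgeR). Sema6d, at 2.41 ± 0.207 CPM in early, 2.46 ± 0.378 in intermediate, 1.81 ± 0.425 in full, then 6.0 ± 1.57 in BEC (SD, n = 3), was called at the third step (log2 fold change 1.72, SE 0.26, adjusted p 0.000294 by edgeR) and not at the others, apart from the first with total counts only (0.69, adjusted p 0.0408 by edgeR). Sema7a, anchored to the membrane by a lipid and a ligand of plexin-C1, was at 2.54 ± 0.474 CPM in full and 6.95 ± 0.720 in BEC (SD, n = 3). It held 2 counts in all in early and 13 in intermediate, and rose from intermediate to full (log2 fold change 3.29, SE 0.47, adjusted p 8.1e-05 by edgeR) and from full to BEC (log2 fold change 1.45, SE 0.34, adjusted p 0.0063 by edgeR). Without intermediate replicate 1, which leaves 4 counts there, the former rise was 22.8-fold by summed counts (exact 95% counting interval 8.76 to 84.8), against 10.1-fold with all 3. The first step was not called (adjusted p 0.0823 by edgeR), except without intermediate replicate 2 or 3 and with total counts only (adjusted p 0.0459, 0.0478 and 0.0187 by edgeR).

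**Figure D3:**
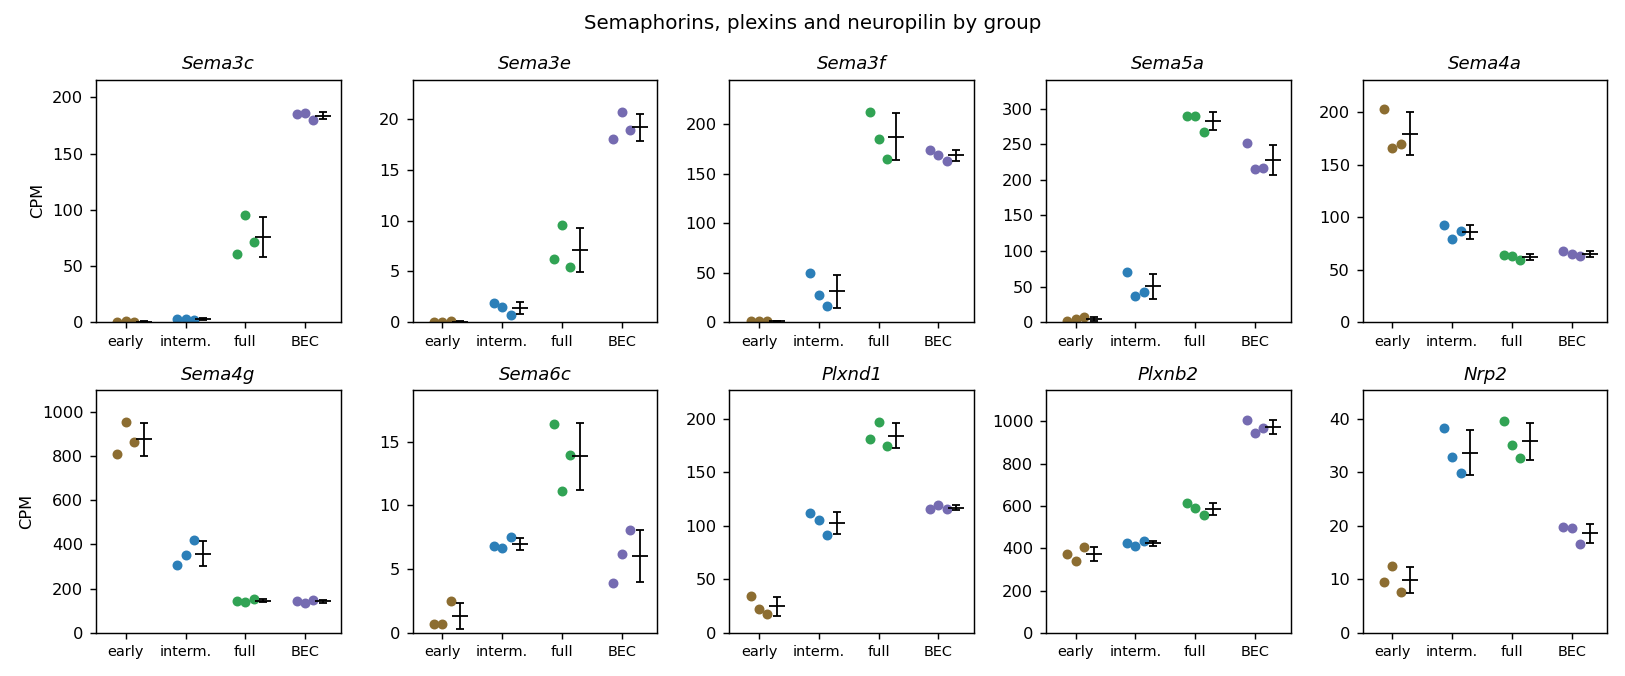
CPM (y axis, linear from 0) of 10 semaphorin, plexin and neuropilin genes by group (x axis); points are the 3 libraries of a group in replicate order, and the black mark and bars are their mean and SD. Sema3c and Sema3e are highest in BEC, Sema4a and Sema4g in early, and Sema6c and Plxnd1 in full, while the Nrp2 points overlap between intermediate and full and are lower in BEC.

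Plexins are the semaphorin receptors, and all 9 were tested. At the first step 5 of the 9 were called higher and the other 4 were not called. At the second 4 were higher and 1 lower, and at the third 3 and 2. The shares of all genes tested, higher and lower, were 28.7% and 25.7%, 20.8% and 19.8%, and 10.7% and 10.6% at these steps. Plxnd1, the receptor of Sema3e, had 34.4, 22.4 and 17.6 CPM in early, 112, 105 and 91.7 in intermediate, 182, 197 and 175 in full, and 115, 119 and 116 in BEC. Full libraries were above all others, with a rise at the first step (log2 fold change 2.05, SE 0.18, adjusted p 4.98e-07 by edgeR) and the second (log2 fold change 0.84, SE 0.17, adjusted p 0.00118 by edgeR) and a fall to BEC (log2 fold change -0.66, SE 0.17, adjusted p 0.0113 by edgeR). Plexin-D1 is also an endothelial protein. At the first step 2 of the 9 endothelial markers tested were called higher with Plxnd1, Egfl7 (4.14 ± 1.45 to 8.16 ± 1.02 CPM; log2 fold change 0.98, SE 0.31, adjusted p 0.0145 by edgeR) and Vwf (1.36 ± 0.224 to 4.26 ± 1.61 CPM; log2 fold change 1.65, SE 0.36, adjusted p 0.00153 by edgeR), and Stab2 was called lower (log2 fold change -1.25, SE 0.43, adjusted p 0.0245 by edgeR). At the second step 0 were higher and 3 lower, at the third 1 was higher and 0 lower, and their part in the level of Plxnd1 was not tested. Plxna1 had 16.3, 17.4 and 18.5 CPM in early, 41.6, 46.5 and 45.3 in intermediate, 67.5, 78.7 and 72.9 in full, and 86.5, 93.9 and 93.1 in BEC. Every step separated its groups, with log2 fold changes of 1.35, 0.72 and 0.32 (edgeR adjusted p 6.02e-08, 2.13e-05 and 0.0153). The last call ended without BEC replicate 2 or 3 or full replicate 1 or 3 (edgeR adjusted p 0.0555 to 0.0794) and with no filter on low counts (0.12). Part of the reads may belong to Gm40415, which overlaps it in RefSeq. Plxna3 had 26, 27.6 and 23.3 CPM in early, 56.8, 56.7 and 64.1 in intermediate, 57.4, 65.2 and 64 in full, and 55.9, 59.9 and 54.7 in BEC. Early was low and the other 3 groups overlapped, and of the 3 steps the first was called (log2 fold change 1.21, SE 0.10, adjusted p 2.08e-07 by edgeR). With total counts only, full was also called higher than intermediate (0.27, adjusted p 0.0247 by edgeR).

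The B plexins can associate with the receptor kinases Met and Erbb2. Plxnb2 had 372, 337 and 407 CPM in early, 427, 411 and 435 in intermediate, 612, 590.0 and 558 in full, and 1008, 944 and 968 in BEC, with no overlap between neighbouring groups. Its rise was called from intermediate to full (log2 fold change 0.47, SE 0.09, adjusted p 0.00115 by edgeR) and from full to BEC (log2 fold change 0.73, SE 0.09, adjusted p 6.55e-05 by edgeR) but not at the first step (log2 fold change 0.19, SE 0.09, adjusted p 0.101 by edgeR), where leaving out early replicate 3 gave a call (0.26, edgeR adjusted p 0.0408), as did total counts only (0.85, 2.52e-06). Plxnb1 rose at the first step (log2 fold change 0.56, SE 0.10, adjusted p 0.00038 by edgeR) and the second (log2 fold change 0.37, SE 0.10, adjusted p 0.0113 by edgeR) to 573 ± 26 CPM in full and stood at 569 ± 63.5 in BEC (SD, n = 3). The second call ended without intermediate replicate 1 (edgeR adjusted p 0.0507). Plxnb3 was at 0 in every early library and at most 1.45 CPM elsewhere. In BEC it was at least 4.38-fold higher than in early (edgeR adjusted p 4.07e-05), with the early level set at 3 counts in each library. The call between early and intermediate rests on 7 counts in all, and ended with DESeq2 (adjusted p 0.0512) and without early replicate 1 or 3 or intermediate replicate 2 (edgeR adjusted p 0.0515 to 0.0557). It also ended with no filter on low counts (edgeR adjusted p 0.0544), and in a fit of those 6 libraries Plxnb3 did not pass the filter. The call between full and BEC (edgeR adjusted p 0.0193) ended without full replicate 1 or 3 or BEC replicate 1 or 2 (edgeR adjusted p 0.072 to 0.0919) and with no filter (0.0744). Plxna2 fell at both later steps, from 38 ± 8.35 CPM in intermediate to 25.3 ± 2.41 in full (log2 fold change -0.59, SE 0.16, adjusted p 0.00995 by edgeR) and 16.8 ± 1.56 in BEC (log2 fold change -0.59, SE 0.16, adjusted p 0.0185 by edgeR). The first of these calls ended without intermediate replicate 3 and on total counts alone (edgeR adjusted p 0.0562 and 0.0702), and the second without BEC replicate 1 or 3 or full replicate 2 (0.0565 to 0.0788). Plxna4 and Plxnc1 were at or under 2.19 CPM in every library and were called at none of the 3 steps, although Plxna4 was called lower in intermediate than in early without early replicate 1 or intermediate replicate 1 (edgeR adjusted p 0.0437 and 0.0341) and with DESeq2 (adjusted p 0.0443).

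Neuropilins are co-receptors for class 3 semaphorins and for VEGF. Nrp2 had 9.49, 12.5 and 7.69 CPM in early, 38.2, 32.9 and 29.9 in intermediate, 39.6, 35.1 and 32.7 in full, and 19.7, 19.5 and 16.5 in BEC. It rose at the first step (log2 fold change 1.77, SE 0.17, adjusted p 9.64e-07 by edgeR), overlapped between intermediate and full (log2 fold change 0.09, SE 0.15, adjusted p 0.673 by edgeR) and was lower in BEC than in full in every library (log2 fold change -0.95, SE 0.15, adjusted p 0.000487 by edgeR). Nrp1 had 63.6, 47.8 and 60.5 CPM in early, 61, 37.7 and 39.2 in intermediate, 73.7, 53.1 and 48.8 in full, and 57.9, 47.4 and 40.6 in BEC, and no pair of neighbouring groups was separated. It was not called at the 3 steps (-0.32, 0.35 and -0.27, edgeR adjusted p 0.208, 0.193 and 0.432). With the replicate number as a block it was lower in intermediate than in early (-0.35, edgeR adjusted p 0.0209) and higher in full than in intermediate (0.36, edgeR adjusted p 0.021). Leaving out intermediate replicate 1, its highest library there, gave the same calls (-0.57 and 0.6, edgeR adjusted p 0.0254 and 0.0241). The sign of the first difference turned with total counts only (0.34, edgeR adjusted p 0.152), which also called the second (0.55, edgeR adjusted p 0.0434).

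Ephrins of the A class are held at the membrane by a lipid anchor and bind mainly EphA receptors. Of 5, 4 were tested. Efna4 had 0.237, 0.0909 and 0.728 CPM in early, 17.9, 14.3 and 12.2 in intermediate, 23.2, 19.9 and 20.4 in full, and 19.9, 19.3 and 20.9 in BEC. It rose at the first step (log2 fold change 5.33, SE 0.33, adjusted p 2.04e-08 by edgeR). Without early replicate 3, the early libraries held 4 counts in all, and the rise was 86.7-fold by summed counts (exact 95% counting interval 33.7 to 319), against 40.6-fold with all 3. A further rise to full was called (log2 fold change 0.52, SE 0.19, adjusted p 0.0441 by edgeR), but not without any 1 of BEC replicates 1 to 3, full replicates 1 to 3 or intermediate replicates 2 and 3 (edgeR adjusted p 0.0528 to 0.172). Full and BEC overlapped. Efna5 had 1.42, 3.91 and 4.05 CPM in early, 2.01, 1.48 and 1.53 in intermediate, 7.40, 8.07 and 5.86 in full, and 26.2, 26.2 and 28.1 in BEC. It was lowest in intermediate and highest in BEC, rising from intermediate to full (log2 fold change 2.09, SE 0.29, adjusted p 5.96e-05 by edgeR) and from full to BEC (log2 fold change 1.91, SE 0.24, adjusted p 6.4e-05 by edgeR). The dip from early to intermediate was called (log2 fold change -0.90, SE 0.32, adjusted p 0.0293 by edgeR) although the groups overlapped, and the call ended without early replicate 2 or 3 or intermediate replicate 2 or 3 (edgeR adjusted p 0.0762 to 0.147). It also ended in a fit of the 6 libraries (0.109) and on total counts alone (-0.24, edgeR adjusted p 0.532).

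Efna1, a ligand of EphA2, was lower in BEC than in early, with 106, 58.5 and 92.8 CPM in early, 69.2, 40.5 and 49.8 in intermediate, 59.2, 39.4 and 44.7 in full, and 41.9, 38.2 and 40.9 in BEC. Early replicate 2 lay among the intermediate libraries, and replicate 1 was the highest in all 4 groups. The first step was called (log2 fold change -0.69, SE 0.22, adjusted p 0.017 by edgeR), a call that ended without early replicate 1 or 3 or intermediate replicate 2 or 3 (edgeR adjusted p 0.0525 to 0.0836) and with total counts only (-0.027, adjusted p 0.926). BEC against early, with no overlap, was called too (log2 fold change -1.09, SE 0.22, adjusted p 0.000555 by edgeR), but not with total counts only (-0.22, edgeR adjusted p 0.359). Efna2 was at or under 3 counts in each early library and rose 7.18-fold (exact 95% counting interval 3.12 to 20.3) to intermediate (edgeR adjusted p 0.00159) and again to 4.32 ± 1.16 CPM in full (SD, n = 3; log2 fold change 1.86, SE 0.38, adjusted p 0.00138 by edgeR). In RefSeq's gene order (GRCm38.p6), Efna1, Efna3 and Efna4 are neighbours with 0 protein-coding genes between them. Of these 3 adjacent genes, Efna4 went up at the first step, Efna1 had the lower values just described, and Efna3 stayed at or under 0.401 CPM in every library.

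Ephrins of the B class span the membrane and bind mainly EphB receptors, and all 3 were higher in BEC than in early. Efnb2, the ligand of EphB4 known from arteries, had 0.554, 0.818 and 1.29 CPM in early, 4.27, 4.49 and 4.42 in intermediate, 32.8, 39.3 and 31.3 in full, and 86.8, 105 and 99 in BEC. The 4 groups were fully separated, and the rise was called at the first step (log2 fold change 2.30, SE 0.23, adjusted p 2.18e-06 by edgeR), the second (log2 fold change 2.97, SE 0.15, adjusted p 2.38e-08 by edgeR) and the third (log2 fold change 1.49, SE 0.13, adjusted p 2.5e-06 by edgeR). Of the 9 endothelial markers tested, 1 was called higher in BEC than in early, Vwf (log2 fold change 2.01, SE 0.36, adjusted p 0.000164 by edgeR), and 2 were called lower, Stab2 (-3.65, edgeR adjusted p 1.37e-05) and Tie1 (-2.41, edgeR adjusted p 0.00477). Among the 6 not called, the fold change was positive for Egfl7 and negative for the other 5. At the 3 steps, each of which raised Efnb2, the log2 fold changes of Vwf were 1.65, -0.84 and 1.19 (edgeR adjusted p 0.00153, 0.0517 and 0.014), and the part of these markers was not tested. Efnb1 stood at 27.8 ± 4.29 CPM in early, 46.3 ± 7.07 in intermediate, 65.8 ± 7.57 in full, then 78.8 ± 14.3 in BEC (SD, n = 3) and was called at the first step (log2 fold change 0.73, SE 0.16, adjusted p 0.00156 by edgeR) and the second (log2 fold change 0.51, SE 0.15, adjusted p 0.0183 by edgeR). The second of these ended without full replicate 1 or 2 or intermediate replicate 1 or 3 (edgeR adjusted p 0.0534 to 0.0894). Efnb3 was scarcer, at 1.79 ± 0.471 CPM in BEC, and was called from intermediate to full (log2 fold change 1.53, SE 0.48, adjusted p 0.0204 by edgeR), a call that ended without full replicate 1 or 2 or intermediate replicate 2 or 3 (edgeR adjusted p 0.0629 to 0.0749). Every early library held at most 3 counts of Efnb3, and intermediate was 2.95-fold higher by summed counts (exact 95% counting interval 0.963 to 12.1). That step was not called (edgeR adjusted p 0.0936), except with total counts only (edgeR adjusted p 0.0149).

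Among the receptors of ephrins, Epha4, Ephb2 and Ephb3 overlapped between early and intermediate and were called higher at both later steps. Epha4, which binds ephrins of both classes, had 0, 0.182 and 0 CPM in early, 0.189, 0 and 0.113 in intermediate, 3.06, 2.05 and 1.62 in full, and 15.1, 11.2 and 12.5 in BEC. Early and intermediate were both at or under 3 counts in each library. Full was 23.4-fold (exact 95% counting interval 9.79 to 72.9) above intermediate (edgeR adjusted p 4.34e-05), a ratio of 40.5 without intermediate replicate 1 and 15.1 without intermediate replicate 2, and BEC was higher again (log2 fold change 2.52, SE 0.34, adjusted p 0.000116 by edgeR). Ephb2 had 3.56, 1.82 and 1.05 CPM in early, 2.01, 0.986 and 1.75 in intermediate, 9.28, 7.80 and 8.44 in full, and 30.3, 32.5 and 30.4 in BEC. Its early and intermediate libraries overlapped (log2 fold change -0.46, SE 0.36, adjusted p 0.308 by edgeR), and both later steps separated the groups (log2 fold change 2.43, SE 0.30, adjusted p 2.66e-05 by edgeR, then log2 fold change 1.87, SE 0.25, adjusted p 0.000107 by edgeR). Ephb3, which with Ephb2 is known for ordering cells along the intestinal crypt, had 0.0791, 0.364 and 0.647 CPM in early, 0.314, 0.0548 and 0.283 in intermediate, 4.08, 5.26 and 3.15 in full, and 23.5, 29.5 and 26.9 in BEC. Early and intermediate overlapped (log2 fold change -0.75, SE 0.70, adjusted p 0.389 by edgeR), and the rises to full (log2 fold change 4.25, SE 0.44, adjusted p 4.5e-06 by edgeR) and to BEC (log2 fold change 2.68, SE 0.27, adjusted p 9.35e-06 by edgeR) were called. The first differences of Ephb2 and Ephb3 have no settled sign. Without early replicate 1 that of Ephb2 was 0.15, and with total counts only 0.21. Without early replicate 3 that of Ephb3 was 0.0083, and none of these was called.

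Epha7 and Ephb6 rose from the first step on. Epha7 had 0.158, 0.637 and 0.0809 CPM in early, 4.78, 3.56 and 4.75 in intermediate, 33.8, 41.4 and 35.4 in full, and 27, 32.4 and 34 in BEC. It was called at the first step (log2 fold change 3.93, SE 0.38, adjusted p 1.2e-06 by edgeR) and the second (log2 fold change 3.08, SE 0.20, adjusted p 1.23e-07 by edgeR), with full and BEC overlapping (log2 fold change -0.24, SE 0.17, adjusted p 0.405 by edgeR). Without early replicate 2, the early libraries held 3 counts in all, and the first rise was 36.2-fold by summed counts (exact 95% counting interval 12.2 to 177), against 15.6-fold with all 3. Ephb6, a receptor without kinase activity, had 4.11, 4.73 and 4.29 CPM in early, 24.1, 17.4 and 16.9 in intermediate, 37.2, 34.8 and 29 in full, and 42.7, 60.8 and 54.7 in BEC. All 3 steps were called (2.15, 0.79 and 0.65, edgeR adjusted p 5.84e-07, 0.00133 and 0.00811), the last of them not without BEC replicate 2 (edgeR adjusted p 0.0504). Epha1 was the 1 Eph receptor of those tested that was called lower at a step in the fit used throughout, with 132, 137 and 134 CPM in early, 49.9, 67 and 63.3 in intermediate, 38, 33.4 and 36.1 in full, and 35.6, 36.6 and 39 in BEC. Early stood above all other libraries. The first 2 steps were called (log2 fold change -1.16, SE 0.10, adjusted p 6.26e-07 by edgeR, then log2 fold change -0.75, SE 0.10, adjusted p 7.29e-05 by edgeR), and full and BEC overlapped. Epha1 overlaps the gene of zyxin, Zyx, in RefSeq, so part of its reads is uncertain.

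Ephb4, the receptor of ephrin-B2, and Epha2, a receptor of ephrin-A1, are the other Eph receptors tested. Ephb4 was at 71.4 ± 5.38 CPM in early, 129 ± 9.996 in intermediate, 155 ± 5.17 in full, then 149.8 ± 16.8 in BEC (SD, n = 3) and was called at the first step (log2 fold change 0.85, SE 0.10, adjusted p 8.7e-06 by edgeR). Its second step was close to the threshold (log2 fold change 0.27, SE 0.10, adjusted p 0.0457 by edgeR) and was not called without any 1 of 8 libraries, BEC replicate 2, early replicate 2, full replicates 1 to 3 and intermediate replicates 1 to 3 (edgeR adjusted p 0.0613 to 0.166) or with no filter on low counts (0.0981). Epha2 was at 81.2 ± 21.4 CPM in early, 141 ± 20.1 in intermediate, 156 ± 9.73 in full, then 118 ± 10.8 in BEC (SD, n = 3), with a call at the first step (log2 fold change 0.80, SE 0.16, adjusted p 0.000961 by edgeR). Its BEC libraries lay below the full ones without a call (log2 fold change -0.40, SE 0.16, adjusted p 0.0995 by edgeR), but the block gave a call (-0.41, adjusted p 0.00969 by edgeR). So did leaving out early replicate 1 (-0.41, edgeR adjusted p 0.0233), the fit of those 6 libraries (-0.42, edgeR adjusted p 0.00618) and no filter on low counts (-0.43, edgeR adjusted p 0.011).

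**Figure D4:**
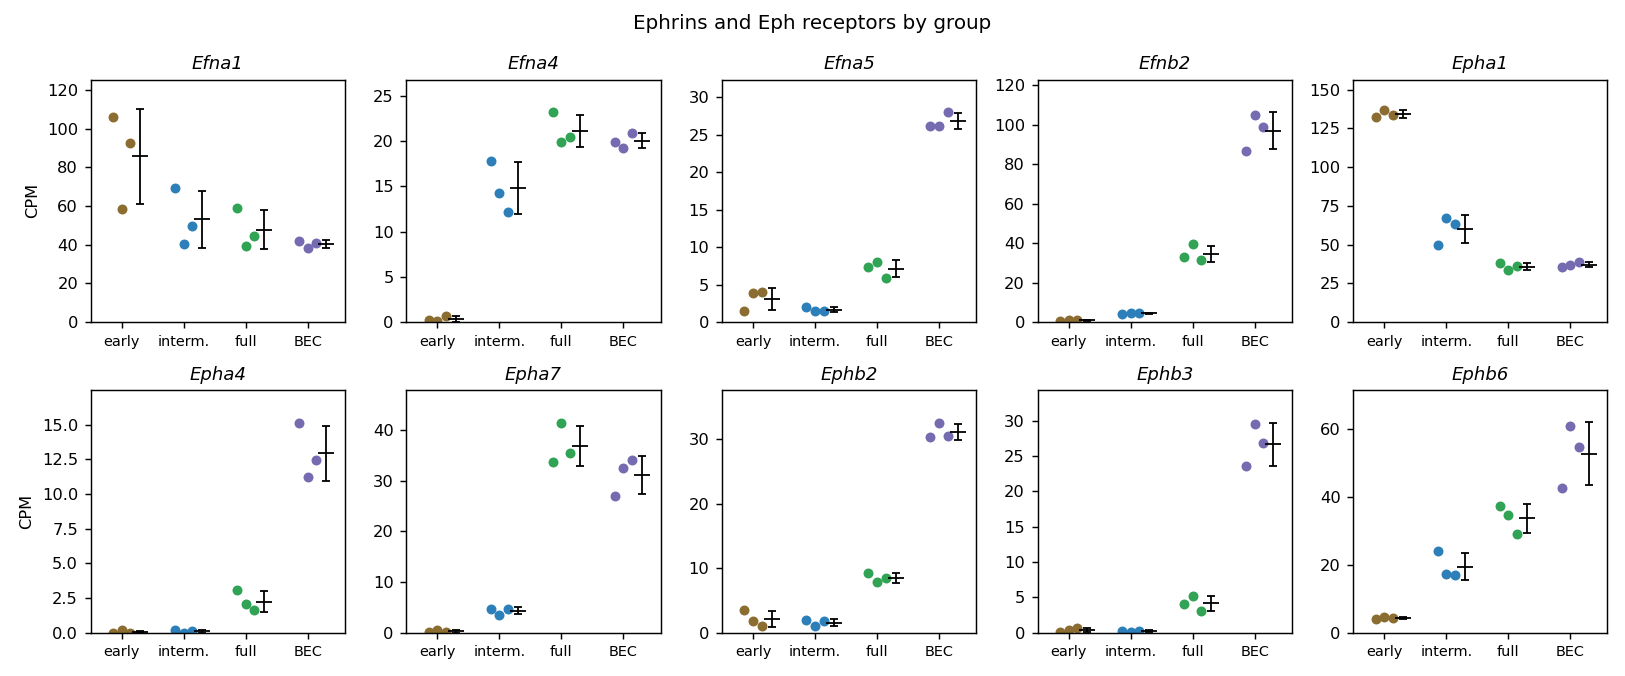
CPM (y axis, linear from 0) of 10 ephrin and Eph receptor genes by group (x axis); points are the 3 libraries of a group in replicate order, and the black mark and bars are their mean and SD. Epha4, Ephb2, Ephb3 and Efna5 are low in early and intermediate and highest in BEC, Epha7 and Efna4 are as high in full as in BEC within their spread, and Epha1 is highest in early.

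Slit2 and Robo1 moved in opposite directions. Slit2, a secreted ligand of Robo receptors, had 0, 0 and 0.162 CPM in early, 3.33, 0.822 and 0.566 in intermediate, 52.5, 41.7 and 42.5 in full, and 89.4, 65.1 and 67.8 in BEC. Early held 2 counts in all, and Slit2 was 27.1-fold (exact 95% counting interval 7.25 to 228) higher in intermediate (edgeR adjusted p 0.00299) and rose again to full (log2 fold change 4.90, SE 0.39, adjusted p 5.45e-07 by edgeR). Intermediate replicate 1 stood above the other 2. Without it the first ratio was 12.5 and the log2 fold change of full against intermediate 6.02. Without early replicate 1 the first ratio was 17.6, and without early replicate 3, which held both early counts, the first rise was at least 6.17-fold. BEC lay above full in every library, a difference that missed the threshold in the fit of 12 libraries (log2 fold change 0.70, SE 0.28, adjusted p 0.107 by edgeR). The replicate block gave a call (0.69, adjusted p 0.0201 by edgeR). So did no filter on low counts (0.67, edgeR adjusted p 0.00176), and fits without intermediate replicate 1 (0.7, edgeR adjusted p 0.00567) and of the 6 libraries alone (0.69, edgeR adjusted p 0.00387). Robo1, a receptor of Slits, had 49.7, 55.7 and 66.3 CPM in early, 50.3, 54.4 and 62.2 in intermediate, 19.1, 21.9 and 26.8 in full, and 0.626, 1.91 and 2.10 in BEC. Early and intermediate overlapped (log2 fold change -0.04, SE 0.21, adjusted p 0.891 by edgeR). Full was lower than intermediate (log2 fold change -1.30, SE 0.21, adjusted p 0.000262 by edgeR) and than early (log2 fold change -1.34, SE 0.21, adjusted p 6.98e-05 by edgeR; with total counts only -0.47, edgeR adjusted p 0.0562, not called), and BEC was far lower than full (log2 fold change -3.86, SE 0.27, adjusted p 4.41e-07 by edgeR). The sign of the first of these differences turned without early replicate 3 (0.084) or intermediate replicate 1 (0.033). With total counts only it was called higher in intermediate (0.62, edgeR adjusted p 0.0187). Of the 9 stellate cell and fibroblast markers tested, Reln was called lower at both later steps (log2 fold change -1.08, SE 0.34, adjusted p 0.0203 by edgeR, then log2 fold change -1.27, SE 0.36, adjusted p 0.02 by edgeR). The other 8 were called at neither. From intermediate to full 7 of them had negative log2 fold changes, down to -1.20, and Des a positive one (0.09), and from full to BEC 6 had positive ones, from 0.22 to 1.17, and Des (-0.70) and Lrat (-0.46) negative ones. In full against early, most of these markers were called lower with Robo1 (edgeR adjusted p 0.000451 to 0.0381). They were Reln (-1.72), Lrat (-1.47), Dcn (-1.98), Col1a1 (-1.29), Col1a2 (-2.31), Col3a1 (-2.40), Pdgfrb (-1.62) and Lum (-2.10). Des was not called there (-0.91, edgeR adjusted p 0.204). The part of these markers in the level of Robo1 was not tested.

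The promoters of this ligand and receptor pair are shown because the 2 genes ranked first by fitted log2 fold change from early to BEC, upward and downward, among the members given with every library for which RefSeq (GRCm38.p6) lists a promoter. The order of the rises is not settled: from early to BEC Slit2 was 1329.6-fold (exact 95% counting interval 368 to 10982) and Sema3e 692-fold (exact 95% counting interval 124 to 27344) higher by summed counts. Without early replicate 1 these ratios were 863 and 449, and without early replicate 3, which held all early counts of both, the rises were at least 290.5-fold and 75.3-fold. Each run is the 250 bases before the listed start on the plus strand, at chr5:47982905-47983154 for Slit2 and chr16:72662899-72663148 for Robo1, with matches to the searched motifs in capitals.
Slit2: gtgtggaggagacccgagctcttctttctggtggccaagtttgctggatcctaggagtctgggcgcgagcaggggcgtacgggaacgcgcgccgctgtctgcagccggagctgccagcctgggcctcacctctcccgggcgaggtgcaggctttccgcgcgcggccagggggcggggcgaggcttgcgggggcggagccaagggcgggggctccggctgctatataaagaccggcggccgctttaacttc
Robo1: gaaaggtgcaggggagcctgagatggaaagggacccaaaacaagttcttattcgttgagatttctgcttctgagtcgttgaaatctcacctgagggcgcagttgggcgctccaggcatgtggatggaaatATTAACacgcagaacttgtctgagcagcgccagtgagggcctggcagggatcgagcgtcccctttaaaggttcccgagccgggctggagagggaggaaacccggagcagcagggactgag
The motifs searched on both strands were those of TEAD (GGAATG), AP-1 (TGANTCA), RBPJ (TGGGAA), HNF1 (GTTAAT), FOXA (TGTTTAC) and SOX (AACAAT), none of which is contained in another. They were found in 12.6%, 6.75%, 21.6%, 6.43%, 3.17% and 9.42% of the 32851 promoter windows of that length. The Slit2 window held 0 matches and the Robo1 window 1, to the HNF1 letters, and the windows of Sema3e and Sema4g, next by the same fitted values, held 0 each. The Slit2 window was 69.6% G or C with 25 CpG dinucleotides and the Robo1 window 56.0% with 11, against medians of 52.4% and 6 over all windows. Counts per gene do not show which start was used, and a match of letters is a description of the window only.

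Netrins are secreted proteins related to laminins, and Unc5 proteins are among their receptors. Ntn4 had 6.09, 8.0 and 6.15 CPM in early, 75.3, 74.1 and 63.9 in intermediate, 95.3, 94.5 and 77.1 in full, and 61.3, 69.5 and 64.4 in BEC. It rose at the first step (log2 fold change 3.40, SE 0.14, adjusted p 6.92e-10 by edgeR), was higher again in full (log2 fold change 0.32, SE 0.11, adjusted p 0.0345 by edgeR) and lower in BEC than in full (log2 fold change -0.45, SE 0.11, adjusted p 0.0102 by edgeR). The call between full and intermediate ended without full replicate 1 or 2 or intermediate replicate 2 or 3 (edgeR adjusted p 0.0627 to 0.153). Unc5b, a netrin receptor also known from blood vessels, had 21.5, 35.4 and 35.6 CPM in early, 102, 94.8 and 104 in intermediate, 193, 163 and 174 in full, and 107, 110.2 and 107 in BEC. Full libraries were above those of every other group, with rises at the first step (log2 fold change 1.70, SE 0.15, adjusted p 5.78e-07 by edgeR) and the second (log2 fold change 0.82, SE 0.14, adjusted p 0.000473 by edgeR) and a fall to BEC (log2 fold change -0.71, SE 0.14, adjusted p 0.00256 by edgeR). Of the endothelial markers, 2 were called higher and 1 lower at the first of these steps and 0 higher and 3 lower at the second, as given beside Plxnd1, and their part in the level of Unc5b was not tested. BEC against intermediate was not called for either gene (-0.13 and 0.11, edgeR adjusted p 0.368 and 0.561).

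**Figure D5:**
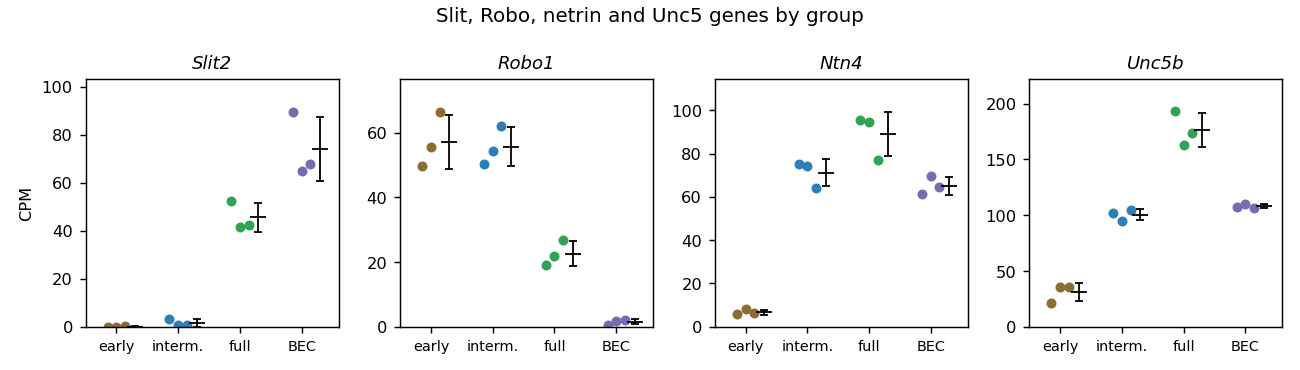
CPM (y axis, linear from 0) of Slit2, Robo1, Ntn4 and Unc5b by group (x axis); points are the 3 libraries of a group in replicate order, and the black mark and bars are their mean and SD. Slit2 climbs from at most 0.162 CPM in early to at least 65.1 in BEC, Robo1 goes from at least 49.7 in early to at most 2.10 in BEC, and Ntn4 and Unc5b peak in full.

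The remaining members were scarce. Robo2, which neighbours Robo1 with 0 protein-coding genes between them, was at or under 1.36 CPM and was called at none of the 3 steps. Leaving out early replicate 1, which had 0, gave a lower call in intermediate against early (-1.77, edgeR adjusted p 0.018). The 8 members that did not pass the filter were Sema3a, Sema3d, Sema3g, Efna3, Epha3, Epha5, Ephb1 and Slit3. Epha5 was at 0 in all 12 libraries, and the highest level of any of the others in a library was 1.09 CPM, for Epha3 in early. They are not among the 16210 genes tested. With no filter on low counts, Sema3g was called higher in full than in intermediate, and Epha3 was called lower in full and in BEC than in early.

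Partners of these proteins, from a separate list of 77 related family genes, co-receptors, proteases and signalling proteins, were counted in the same way. That list too was chosen with earlier results of these data known. Of 68 tested, 37 were called higher and 7 lower at the first step (54.4% and 10.3%, against 28.7% and 25.7% of all genes tested). At the second step 31 were higher and 7 lower (45.6% and 10.3%, against 20.8% and 19.8%), and at the third 11 and 12 (16.2% and 17.6%, against 10.7% and 10.6%), with median log2 fold changes of 0.54, 0.23 and 0.01. On total counts alone, 58 of the 68 were called higher and 2 lower at the first step. At the second, 42 of the 68 were higher and 3 lower. Among all genes tested, 59.4% were higher and 10% lower at the first step, and 32.3% and 12.2% at the second. Erbb2, a receptor kinase that associates with B plexins, rose at the first step, from 0.614 ± 0.288 CPM to 25 ± 2.80 (SD, n = 3; log2 fold change 5.34, SE 0.22, adjusted p 7.68e-10 by edgeR). Srgap1, a Slit-Robo GTPase-activating protein, went up from 0.747 ± 0.352 CPM to 14.9 ± 2.09 (log2 fold change 4.30, SE 0.31, adjusted p 8.61e-08 by edgeR). Dpysl3, a cytoskeletal protein of the semaphorin response, did so from 11.7 ± 4.14 CPM to 219 ± 38.2 (log2 fold change 4.22, SE 0.22, adjusted p 4.08e-09 by edgeR). At the second step the genes named by the rule (a called change of at least 2 on the log2 scale, reaching 10 CPM) were Enah, Flrt2, Dpysl4, Rgma and Mical1. Their log2 fold changes and levels in full are given for Enah, an actin regulator downstream of Robo receptors (3.63, to 56.5 ± 8.13 CPM), Flrt2, a ligand of Unc5 receptors (4.07, to 18.5 ± 6.12 CPM), Dpysl4 (3.14, to 43.7 ± 9.08 CPM), Rgma, a ligand of neogenin (2.17, to 13.2 ± 1.47 CPM), and Mical1, an actin-oxidising enzyme of plexin signalling (2.06, to 32 ± 4.82 CPM), with edgeR adjusted p of 4.63e-07, 1.32e-06, 7.94e-05, 1.14e-05 and 3.22e-05. Between full and BEC it was Ntn1, the netrin-1 gene, which went from 5.64 ± 0.211 CPM to 23.4 ± 6.96 (log2 fold change 2.05, SE 0.26, adjusted p 5.75e-05 by edgeR).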

How the data were processed

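The deposited table holds raw read counts for each gene, without normalization, and its name refers to featureCounts. STAR 2.7.10b, featureCounts 2.0.1, DESeq2 and the build GRCm39 are named in the submitters' processing notes. The gene annotation, whether counting used strand, and how reads with several matches were handled are not given in the sources used here. Columns were matched to samples by the labels' descriptions, and 0 columns were left without a sample. A second deposited table, of scaled values, was not used here.

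The tools were edgeR 4.0.16 and DESeq2 1.42.0 under R 4.3.3, and matplotlib 3.10.9 under Python 3.11.15. Low genes were removed by filterByExpr (by group), and 1 edgeR model with TMM factors and a term for each group covered all 12 libraries. Comparisons used edgeR's quasi-likelihood test with Benjamini-Hochberg adjustment over 16210 genes. The biological coefficient of variation of that fit was 14.8%. Members were given with their value in every library where a step was called by at least 1 on the log2 scale in either direction and the higher group averaged at least 10 CPM, which held for 30. Others shown this way (Nrp1, Plxnb2, Efna1) were chosen after their values were seen. Partner genes were named by the same rule at 2 or more. The members and lists were chosen with earlier results of these data known.

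Where every library of the lower group held at most 3 counts, a ratio of summed CPM with its exact 95% interval replaces the fitted fold change; such intervals and floors cover counting error only, since PCR reads are not independent molecules. Replicate numbers in the labels paired the libraries at the 3 steps by the rule that every same-numbered pair correlates above 0.1 (deviations from group means, r from 0.121 to 0.293, 0.137 to 0.322 and 0.170 to 0.257). What the numbers mark is not given in the sources used here. Promoters came from RefSeq (GRCm38.p6), which held 49 of the 55 members. The code was also run on simulated counts in which few genes changed. That run does not bear on the scaling of these data. Alternatives covered scaling, DESeq2, filters on low counts, the replicate block, fits of 6 libraries and fits without each library in turn.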

Additional observations from a re-analysis of the deposited data

How the results depend on the processing

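Of the results tested with DESeq2, with median-of-ratios factors, with either other filter on low counts, with the replicate block and in fits of 6 libraries, every count of called genes stayed within 1.5 times its value. With total counts only, the members called lower were 3 against 5 in intermediate against early and 3 against 7 in full against early. The share of all genes called lower moved too, to 10% from 25.7% and to 14.8% from 32.1%. The partner genes called were 58 higher and 2 lower at the first step and 3 lower at the second, against 37, 7 and 7. The median of all genes moved to 0.72, 0.21 and 1.005 in intermediate against early, full against intermediate and full against early. Leaving out 1 library gave between 3 and 7 members lower in intermediate against early, with 3 of them without early replicate 3, intermediate replicate 2 or intermediate replicate 3.

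For single members, total counts only reversed Sema6b (0.401), Nrp1 (0.34), Plxna2 (0.48), Ephb2 (0.21) and Robo1 (0.62) in intermediate against early, Efna1 (0.047) and Robo2 (0.000249) in full against intermediate, and Ntn4 (0.074) in BEC against intermediate. Differences near 0 also changed sign for Plxnb1 in BEC against full with DESeq2 (0.00300), median-of-ratios factors (0.00298) and the filter of at least 50 counts (0.00392), for Sema6d at the first step with DESeq2 (-0.0271) and median-of-ratios factors (-0.0261), and for Robo1 at the first step with no filter (0.00133). None of these was called except Plxna2 and Robo1 with total counts only. Leaving out 1 library in turn gave ranges that cross 0 for Ephb2 (-0.79 to 0.15), Ephb3 (-1.24 to 0.00831), Robo1 (-0.13 to 0.0843), Sema4f (-0.84 to 0.64) and Sema6d (-0.0508 to 0.15) in intermediate against early, for Efna1 (-0.34 to 0.0821), Robo2 (-0.52 to 0.10) and Sema4f (-1.30 to 0.90) in full against intermediate, and for Efna2 (-0.28 to 0.20), Epha1 (-0.00312 to 0.0912), Ephb4 (-0.11 to 0.0382), Plxna4 (-0.62 to 0.0635), Plxnb1 (-0.0723 to 0.0785) and Sema4g (-0.0662 to 0.00968) in BEC against full. The cause of these changes was not tested. The replicate block gave 4 further calls, those of Nrp1 at the first 2 steps and of Slit2 and Epha2 at the third, and changed no other call of a member at the 3 steps. Depth limits members near the floor of 0.128 to 0.273 CPM, of which 8 were not tested.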
